A study of Homo sapiens with 15 samples.

Results

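Ribosome biogenesis genes, 36 in all, were followed through the cell cycle of U2OS cells, a human osteosarcoma line. The genes were named from a list of known factors of ribosome assembly, and the rule uses no measured value, though earlier results of these data were known when the list was drawn up. All 36 were found among the 19531 gene names in the deposited tables, and all 36 had enough reads to be tested in every comparison below.

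The study used SLAM-seq, in which 4-thiouridine taken up into new RNA is alkylated and then read as a T-to-C conversion. Every culture received 4-thiouridine and EdU for 45 minutes, was fixed with glyoxal and methanol, and was sorted on EdU and DNA content. The groups were G1, Early_S, Late_S and G2, with 3 libraries each, and No_alkylation, also with 3 libraries, in which the alkylation step is named as absent. The sorted cells came from asynchronous cultures of a single line. The labels do not say which sorted cells the No_alkylation RNA came from. Nor do they say whether the 3 libraries of a group came from separate cultures, so p-values measure the spread between libraries, which may be technical.

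A ribosome is built in the nucleolus. RNA polymerase I makes a long precursor RNA, small nucleolar ribonucleoproteins modify it at chosen bases, and separate sets of assembly factors cut and fold it into the small and the large subunit. Growing and dividing cells spend much of their resources on this pathway, and its genes are known to be switched on together with growth signals.

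The libraries held 16096695 to 21803972 reads in the counted regions, which lie near the ends of transcripts. Reads with a T-to-C conversion (T>C reads) made up 22.3% ± 0.740 of the G1 libraries and 18.4% ± 0.516 of Early_S (SD, n = 3). They were 10.0% ± 0.087 of Late_S, 10.1% ± 0.336 of G2 and 1.01% ± 0.018 of No_alkylation. The summed level of 8 G2/M marker genes was 415 to 423 CPM (counts scaled to a common library size) in G1, 631 to 636 in Early_S, 1102 to 1158 in Late_S and 1419 to 1494 in G2. That of 6 G1/S marker genes was 773 to 812 CPM in G1, 544 to 586 in Early_S, 504 to 533 in Late_S and 466 to 536 in G2, so it too was lower in Early_S than in G1. Markers of the line were present except TWIST1, and 5 blood markers together stayed at or below 0.463 CPM. Of 4 epithelial markers, 3 were also present, with at least 150 reads over all libraries. The 4 summed to 12.9 to 17.1 CPM in Early_S, 20.8 to 30.8 in G1 and 22.4 to 34.5 in No_alkylation. They summed to 17.2 to 29.2 CPM in Late_S and 23.4 to 24.9 in G2. The part of a library inside the counted regions also differed, at 64.8% ± 0.173 in G1 and 69.1% ± 0.475 in Early_S, and reads that map to several places were 11.1% ± 0.115 and 12% ± 0.147.

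The steady-state level of most ribosome biogenesis genes was lowest in Early_S. Levels are normalised CPM of all reads and are compared only within a gene. In Early_S against G1, 27 of the 36 genes fell and none rose (edgeR quasi-likelihood test, Benjamini-Hochberg adjusted p under 0.05 over 13755 genes; no gene was higher even at an unadjusted p under 0.05). Of all genes tested, 11.8% were called lower and 12.5% higher in the same comparison. The median log2 change of the 36 genes was -0.54, against -0.00 over all genes. The phase with the lowest mean was Early_S for 32 of the 36 genes and for 26.6% of all genes. In the test across the 4 phases, 27 of the 36 were called, against 34.1% of all genes. These levels are relative to the other genes of a library, and the RNA content of a cell was not measured. A fall here need not be less RNA per cell. In sorted pools of cells, fewer cells with the RNA and a lower level in each cell cannot be told apart.

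**Figure D1:**
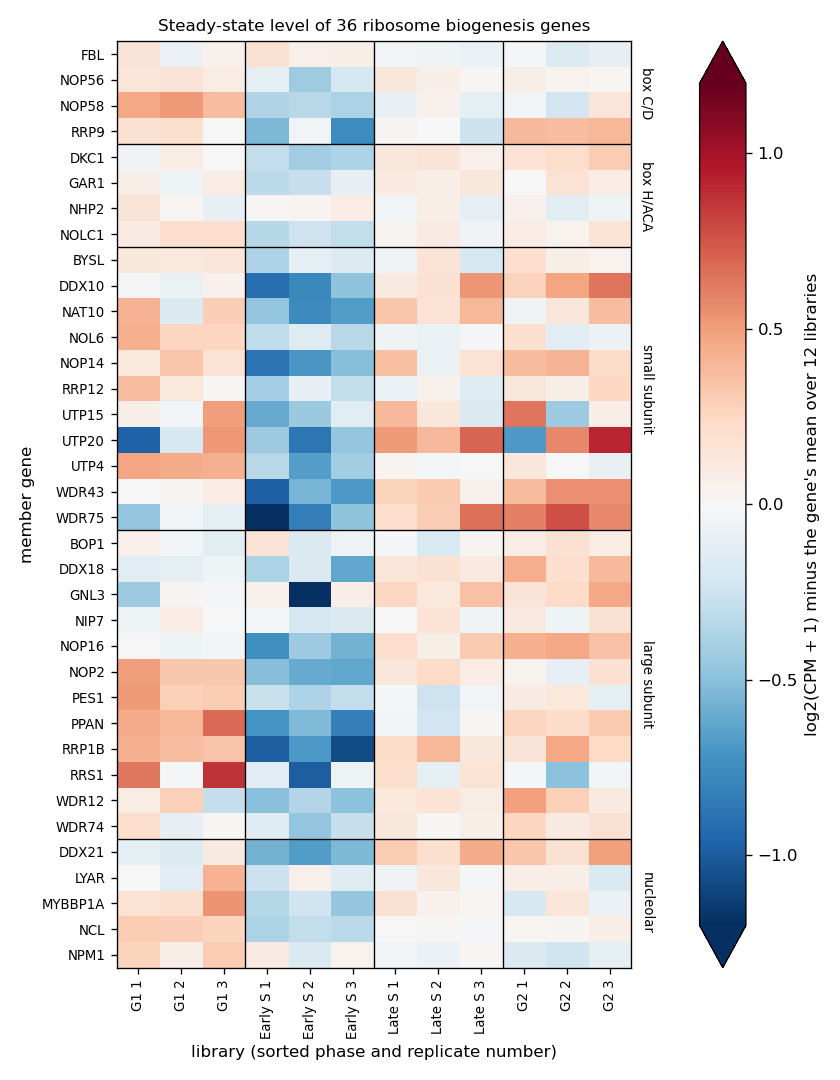
Steady-state level of each of the 36 genes (rows, grouped by role) in the 12 alkylated libraries (columns). Colour gives log2(CPM + 1) minus the gene's mean over the 12 libraries, and the 3 Early_S columns are the bluest for most rows, with FBL, NHP2, BOP1 and NPM1 among the exceptions.

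The box C/D proteins build the particles that guide 2′-O-methylation of ribosomal RNA. Fibrillarin (FBL) is their methyltransferase, NOP56 and NOP58 are its core partners, and RRP9 is particular to the U3 particle. FBL did not follow the other 3: its level was 1001, 856 and 931 CPM in G1, 1025, 936 and 944 in Early_S, 878, 874 and 851 in Late_S and 889, 802 and 840 in G2. G1 and Early_S overlapped, and the log2 change was 0.06 ± 0.06 (SE, adjusted p = 0.56, edgeR quasi-likelihood). NOP58 fell from 271 ± 14.2 CPM in G1 to 154 ± 2.48 in Early_S (SD, n = 3), a log2 change of -0.82 ± 0.09. NOP56 fell by 0.38 and RRP9 by 0.54 on the log2 scale. NOP56, NOP58 and RRP9 each had all 3 Early_S libraries below all 3 G1 libraries, as did 18.9% of all genes tested. For RRP9 the gap was narrow, from 98.1 CPM in the second Early_S library to 99.8 in the third G1 library.

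The box H/ACA proteins guide the conversion of uridine to pseudouridine, with dyskerin (DKC1) as the enzyme. DKC1 stood at 408, 445 and 420 CPM in G1, 342, 314 and 325 in Early_S, 461, 466 and 438 in Late_S and 472, 486 and 519 in G2. Early_S lay below every other library, and the log2 change from G1 was -0.38 ± 0.07 (SE, adjusted p = 7.5e-05, edgeR quasi-likelihood). NOLC1, a chaperone of these particles, fell by 0.46 on the log2 scale, and the subunit GAR1 by 0.27. The call of GAR1 was marginal (adjusted p = 0.045) and was lost on leaving out any of 8 single libraries. NHP2, another subunit, was level, at 118 ± 10.4 CPM in G1 and 119 ± 3.12 in Early_S.

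Among the 11 factors of the small subunit, 9 fell in Early_S against G1, and the median log2 change was -0.64. NOP14, NAT10 (an RNA acetyltransferase), UTP4 and WDR43 (parts of the small subunit processome) moved most, with log2 changes of -0.93, -0.85, -0.92 and -0.79. UTP4 stood at 245, 241 and 238 CPM in G1 against 140, 112 and 132 in Early_S. UTP15 and UTP20, both scaffold parts of the processome, had changes of -0.63 ± 0.29 and -0.59 ± 0.44 (SE) that did not pass the test. They were also the 2 members with the fewest reads, 4181 and 2611 over all 15 libraries.

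Among the 12 factors of the large subunit, 8 fell, with a median log2 change of -0.52. They include the largest falls of all 36 genes. RRP1B, a nucleolar partner of protein phosphatase 1, stood at 148, 143 and 141 CPM in G1, 55.0, 68.1 and 51.9 in Early_S, 129, 146 and 121 in Late_S and 123, 153 and 131 in G2. Its Early_S libraries lay far below the rest, 2.47-fold under G1 (log2 change -1.30 ± 0.11 SE, adjusted p = 6.5e-12, edgeR quasi-likelihood). PPAN, the human peter pan homologue, stood at 20.9, 20.2 and 24.8 CPM in G1, 8.78, 10.1 and 8.12 in Early_S, 14.7, 12.8 and 15.3 in Late_S and 18.3, 17.7 and 19.0 in G2, so that no Early_S library reached any other (log2 change -1.28 ± 0.24 SE). NOP2, a methyltransferase of 28S ribosomal RNA, stood at 154, 136 and 136 CPM in G1, 75.9, 70.9 and 70.2 in Early_S, 119, 128 and 116 in Late_S and 112, 101 and 123 in G2 (log2 change -0.97 ± 0.11 SE).

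The complex of PES1, BOP1 and WDR12, which acts on the large subunit precursor, was split. PES1 (log2 change -0.69 ± 0.11 SE) and WDR12 (-0.50 ± 0.15 SE) fell, while BOP1 gave 0.01 ± 0.10 (SE, adjusted p = 0.96, edgeR quasi-likelihood). BOP1 stood at 173, 162 and 152 CPM in G1 and 185, 147 and 158 in Early_S, which overlap. The call of WDR12 was lost without the second G1 library (log2 change -0.38, adjusted p = 0.10). GNL3 (nucleostemin), NIP7 and WDR74 did not pass the test, with log2 changes of -0.14, -0.15 and -0.35. The GNL3 value rests on uneven libraries, since Early_S gave 45.9, 17.2 and 46.4 CPM, and 68.6% of its reads map to several places.

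Among the 5 abundant or regulatory nucleolar proteins, 4 fell and LYAR did not pass the test (log2 change -0.23 ± 0.18 SE). Nucleolin (NCL), which binds the precursor RNA, was among the most even: 957, 953 and 936 CPM in G1, 596, 633 and 619 in Early_S, 777, 781 and 762 in Late_S and 789, 794 and 821 in G2. The 4 phases separated into a high G1, a low Early_S and 2 close levels between, and the change from G1 to Early_S was -0.62 ± 0.06 on the log2 scale (SE, adjusted p = 5.5e-11, edgeR quasi-likelihood). Nucleophosmin (NPM1), a histone and ribosome chaperone, stood at 2782, 2438 and 2842 CPM in G1, 2461, 2043 and 2374 in Early_S, 2250, 2195 and 2328 in Late_S and 2042, 1957 and 2130 in G2. G1 and Early_S overlapped, the change was small (log2 -0.23 ± 0.06 SE), and without the second Early_S library it was no longer called (-0.15, adjusted p = 0.058). The helicase DDX21 fell by 0.54 and the Pol I regulator MYBBP1A by 0.68 on the log2 scale.

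**Figure D2:**
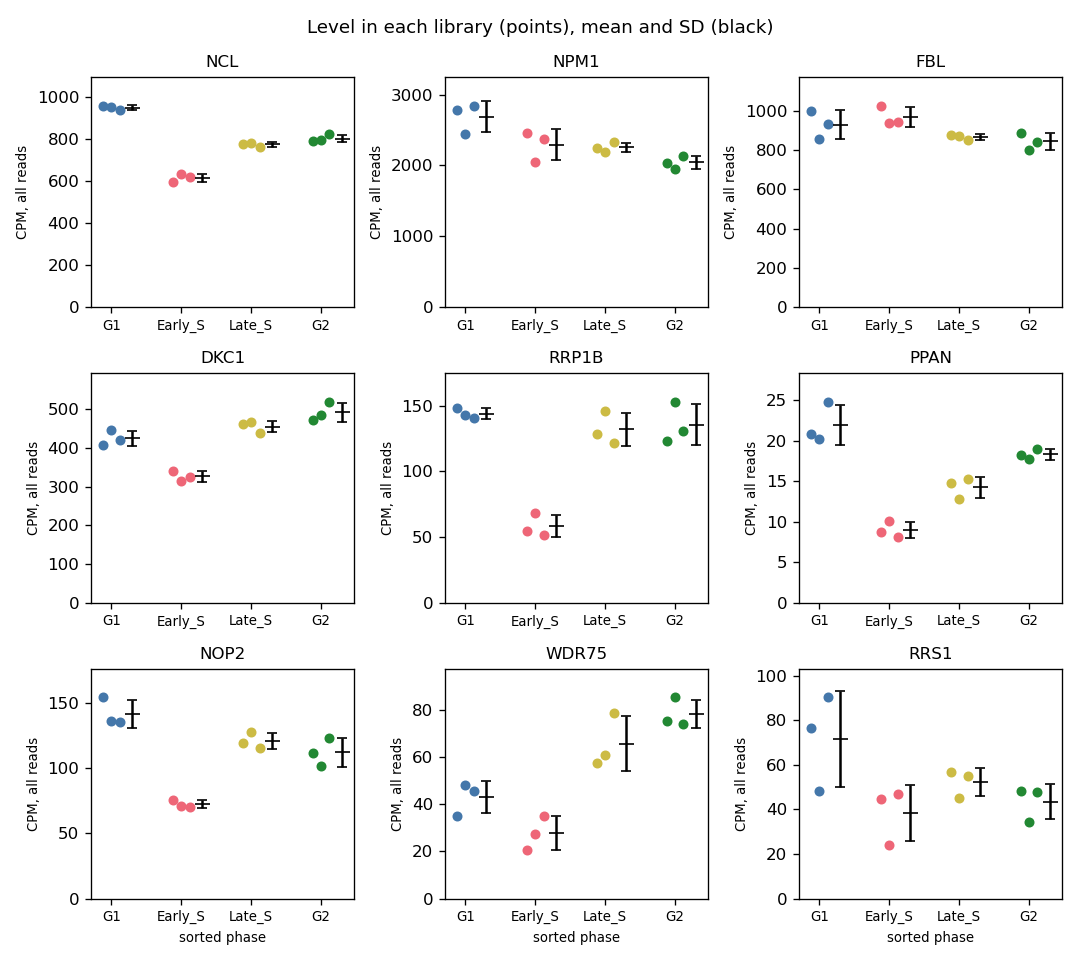
Level of 9 of the genes in CPM of all reads (vertical axis, from 0) in each library of the 4 phases (points), with the mean and SD of the 3 libraries in black. RRP1B, PPAN and NOP2 are lowest in Early_S, FBL is level, NPM1 declines towards G2, WDR75 is highest in G2, and the second RRS1 library is the lowest of its phase in all 4 phases.

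Leaving out each of the 12 libraries in turn kept 20 of the 27 falls called every time, and between 23 and 27 genes were called. The 7 that were lost at least once were GAR1, DDX18, BYSL, MYBBP1A, NPM1, RRP12 and WDR12. Without reads that map to several places, 25 of the 27 were still called. Whether the higher share of Early_S libraries inside the counted regions has a part in these falls was not tested.

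The same 36 genes were then set beside the letters near their transcription starts. RefSeq windows (GRCh38.p14) from 250 bases before to 50 bases after a start were on hand for 29 of the 36 genes; BOP1, DDX18, NOLC1, NOP58, RRP12, RRP1B and RRS1 had none. The E-box CACGTG, a palindrome bound by helix-loop-helix factors, occurred in a window of 16 of the 29 genes (55.2%), against 8.77% of all 27305 genes with windows and 10.9% of the 15842 protein-coding ones. It lay wholly before the start in 5 genes, across the start in 1 and after it in 10, never farther than -64 or +36 bases. The windows below show 7 of them, 30 bases each on the strand of the gene, with the E-box in capitals.

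DDX21: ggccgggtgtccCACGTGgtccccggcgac

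LYAR: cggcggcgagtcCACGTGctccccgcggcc

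NAT10: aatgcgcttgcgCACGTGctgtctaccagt

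UTP4: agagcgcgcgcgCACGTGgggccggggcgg

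RRP9: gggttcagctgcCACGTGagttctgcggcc

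WDR43: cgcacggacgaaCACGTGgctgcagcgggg

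FBL: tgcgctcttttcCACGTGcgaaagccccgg

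They were chosen to cover genes that fell in Early_S (DDX21, NAT10, UTP4, RRP9, WDR43) and genes that did not pass the test (LYAR, FBL). They lie at chr10:68956604-68956633 (DDX21, plus strand), chr4:4290068-4290097 (LYAR, minus strand), chr11:34105602-34105631 (NAT10, plus strand), chr16:69132621-69132650 (UTP4, plus strand), chr3:51941892-51941921 (RRP9, minus strand), chr2:28894658-28894687 (WDR43, plus strand) and chr19:39846356-39846385 (FBL, minus strand). The E-box starts 31 bases before the start site in DDX21 and 64 before it in LYAR, and at base 4 of the transcript in WDR43 and base 7 in FBL. Of the genes with an E-box 12 of 16 fell in Early_S, and of those without it 9 of 13. Their median log2 changes were -0.59 and -0.50, and the difference was not tested.

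The other motifs searched, on either strand, were rarer. CCGGAAG, the core of ETS sites, was in 9 of the 29 genes (31.0%; 12.2% of all genes). GCATGCGC, the core of NRF1 sites, was in 3 (10.3%; 3.68% of all genes), and each of DDX10, DKC1 and MYBBP1A held it on both strands in overlapping copies. AAGATGGCG, the core of YY1 sites, was in NIP7 alone (3.45%; 2.14% of all genes). The match of letters is a description and shows no binding.

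**Figure D3:**
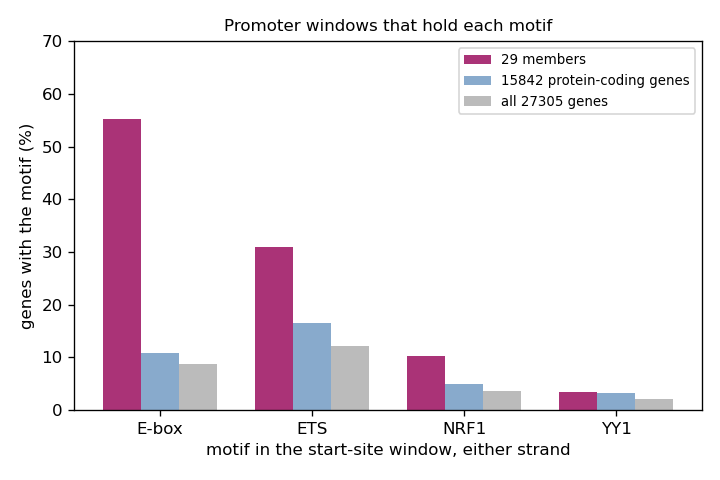
Percentage of genes (vertical axis) whose start-site windows hold each motif on either strand, for 29 of the ribosome biogenesis genes, 15842 protein-coding genes and all 27305 genes with windows. The E-box bars stand at 55.2%, 10.9% and 8.77%.

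In Late_S against Early_S the movement was the other way. Of the 36 genes, 19 rose and none fell (edgeR quasi-likelihood, adjusted p under 0.05; 1 gene, FBL, was lower at an unadjusted p under 0.05, and it was called lower with a replicate block, at -0.16, adjusted p = 0.047). Of all genes, 6.99% were called higher and 4.25% lower. The median log2 change was 0.44, against -0.04 over all genes. This comparison and the one before share the Early_S libraries, so a low Early_S enters both.

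Of the small subunit factors, 7 of 11 rose, with a median log2 change of 0.88. WDR75, a processome protein, had 35.1, 48.2 and 45.7 CPM in G1, 20.7, 27.3 and 35 in Early_S, 57.3, 60.8 and 78.7 in Late_S and 75.4, 85.1 and 74.0 in G2. All Late_S and G2 libraries lay above all G1 and Early_S libraries, and the rise from Early_S was 2.38-fold (log2 change 1.25 ± 0.17 SE, adjusted p = 6.4e-07, edgeR quasi-likelihood). UTP20 had the largest fitted rise, 1.30 ± 0.44 (SE), on the fewest reads: 4.29, 2.93 and 4.19 CPM in Early_S against 9.22, 8.34 and 10.6 in Late_S, with 2.65, 5.27 and 9.28 in G1 and 3.44, 9.67 and 12.4 in G2. Its call (adjusted p = 0.048) was lost on leaving out any of the 6 Early_S and Late_S libraries (adjusted p from 0.075 to 0.15). The helicase DDX10 rose by 1.03, WDR43 by 0.97 and NAT10 by 0.95.

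Among large subunit factors, 5 of 12 rose. RRP1B rose 2.26-fold (log2 change 1.18 ± 0.11 SE), NOP16 by 0.79, NOP2 by 0.74, WDR12 by 0.59 and DDX18 by 0.53. PPAN and PES1 had Late_S libraries all above Early_S, as did 14.3% of all genes tested. Their changes of 0.66 ± 0.24 and 0.22 ± 0.11 (SE) did not pass the test. Of the modification enzymes' proteins, NOP56, NOP58, DKC1, GAR1 and NOLC1 rose, by 0.32 to 0.48. The rise of NOP58 was 0.12 (adjusted p = 0.61) when only its most-read region was counted. Of the nucleolar proteins, DDX21 rose by 0.91 and NCL by 0.33, and NPM1 was level (log2 change -0.02 ± 0.06 SE). Leaving out 1 library at a time gave 17 to 20 calls, and 15 of the 19 were kept every time; the others were UTP20, GAR1, NOP58 and NOP56.

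**Figure D4:**
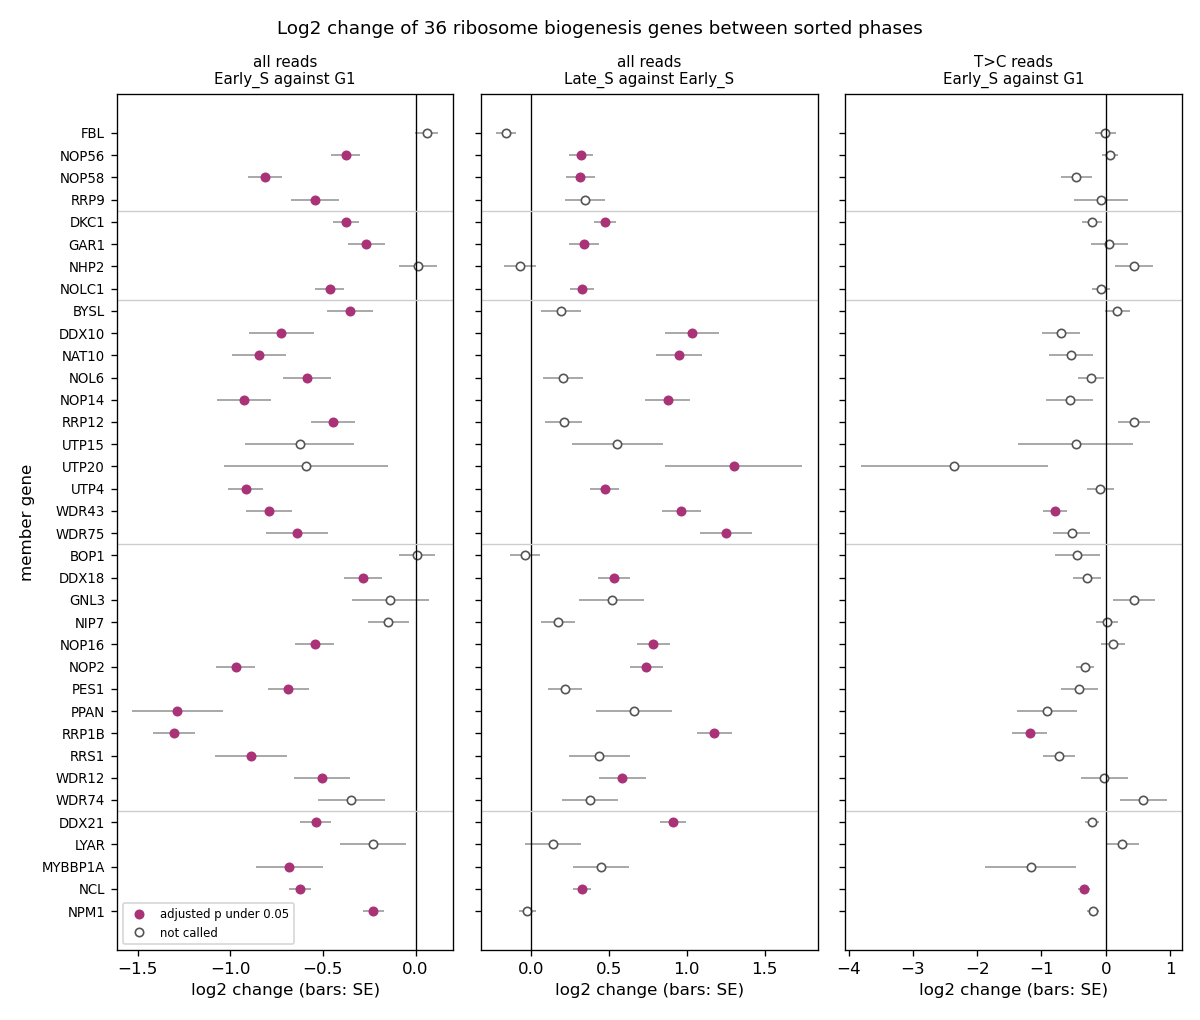
Log2 change (horizontal axis, bars SE) of each of the 36 genes in all reads for Early_S against G1 and Late_S against Early_S, and in T>C reads for Early_S against G1. Filled points passed the test, 27, 19 and 3 in the panels from left to right, and grey lines part the roles.

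Between Late_S and G2 no member was called in steady-state levels (edgeR quasi-likelihood; 3 at an unadjusted p under 0.05, and none by DESeq2), against 0.145% of all genes. The median log2 change was 0.05. Around the division, G1 against G2, the genes went separate ways: 7 were higher in G1 and 7 lower, beside 10% and 11.1% of all genes. NPM1, NCL, NOP58, NOP2, PES1, UTP4 and RRS1 were higher in G1, and DDX18, NOP16, DDX21, DDX10, WDR43, WDR75 and DKC1 were higher in G2. The share called among the 36 genes is above the background in both directions, and the median change was 0.04. Leaving out 1 library at a time kept 9 of the 14 calls every time. DDX10, DKC1, NOP2, PES1 and RRS1 were each lost at least once.

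WDR75 differed most in this comparison, 1.82-fold lower in G1 (log2 change -0.86 ± 0.16 SE, adjusted p = 9.4e-05, edgeR quasi-likelihood). RRS1, a factor of early large subunit assembly, had 76.4, 48.2 and 90.3 CPM in G1, 44.9, 24.2 and 46.9 in Early_S, 56.9, 45.1 and 55.2 in Late_S and 48.3, 34.6 and 47.8 in G2. G1 and G2 overlapped narrowly, and its higher G1 level (log2 change 0.72 ± 0.19 SE) was not called by DESeq2 (adjusted p = 0.072) or without G1 replicate 3 (0.52, adjusted p = 0.079, edgeR). DDX10 had 34.4, 32.8 and 36.1 CPM in G1, 18, 20 and 24.6 in Early_S, 37.6, 39.6 and 50.7 in Late_S and 42.3, 48.6 and 54.9 in G2, so that G2 lay wholly above G1 (log2 change -0.50 ± 0.17 SE), though 5 of the libraries were each needed for the call. The higher G1 level of NPM1, 0.40 ± 0.06 on the log2 scale, was 0.14 (adjusted p = 0.076) without reads that map to several places, which are 60.0% of its reads.

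The rest of the pathway was taken from lists of related genes. Other small subunit factors had 20 of 43 lower and 0 higher in Early_S against G1 (median log2 change -0.37), among them IMP3, a U3 particle protein, at -1.24 ± 0.10 (SE), and RCL1 at -2.12 ± 0.24. Other large subunit factors had 27 of 49 lower and 1 higher (median -0.47), led by SDAD1 (-0.79), LSG1 (-0.79) and GNL2 (-0.89). The RNA polymerase I machinery had 5 of 15 lower and 1 higher (median -0.25), with the subunit POLR1B at -0.77 and the initiation factor RRN3 at -0.91. Other proteins of the small nucleolar particles had 4 of 12 lower and 1 higher (median -0.25). TGS1, which methylates the cap of some of their RNAs, stood at -1.01 and the assembly factor SHQ1 at -1.18. The exosome, which trims RNA ends, had 3 of 14 lower and 3 higher (median -0.19). Over all genes tested in this comparison, 11.8% were called lower and 12.5% higher.

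The genes for the ribosomal proteins themselves moved the other way. Of 78 cytosolic ribosomal protein genes, 26 were higher and 0 lower in Early_S against G1, beside 12.5% and 11.8% of all genes. Their median log2 change was 0.10. RPL15 rose by 0.29 and RPS16 by 0.23. In Late_S against Early_S, 58 of the 78 were lower and 0 higher (median -0.21), beside 4.25% lower and 6.99% higher of all genes. Other small and large subunit factors rose in that comparison, 19 of 43 and 15 of 49, with 0 lower in either list.

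T>C reads were tested next, scaled to one another across genes. They hold RNA labelled in the 45-minute pulse and a background, which was 1.01% of reads in No_alkylation. The main fit did not subtract this background. In Early_S against G1, 3 of the 36 genes fell and none rose (edgeR quasi-likelihood, adjusted over 11474 genes; 7 were lower and none higher at an unadjusted p under 0.05). Of all genes, 1.48% were called lower and 3.69% higher. The median log2 change of the 36 genes was -0.22, against -0.01 over all genes. Across the 4 phases, 7 of the 36 were called, against 10.4% of all genes.

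RRP1B had 228, 275 and 196 T>C CPM in G1 and 102, 146 and 58.9 in Early_S, followed by 70.7, 128 and 90.8 in Late_S and 124, 111 and 98.2 in G2. Only G1 was high, and the fall was 2.28-fold (log2 change -1.19 ± 0.27 SE, adjusted p = 0.0067, edgeR quasi-likelihood). WDR43 had 218, 211 and 203 T>C CPM in G1, 104, 148 and 111 in Early_S, 247, 327 and 235 in Late_S and 304, 314 and 236 in G2, with Early_S alone low (log2 change -0.80 ± 0.19 SE). NCL had 1334, 1345 and 1132 T>C CPM in G1, 968, 1000 and 1036 in Early_S, 1052, 946 and 998 in Late_S and 1070, 1153 and 1217 in G2 (log2 change -0.34 ± 0.10 SE, adjusted p = 0.030, edgeR quasi-likelihood).

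None of these 3 falls held in every set of libraries. Without Early_S replicate 1 only RRP1B was called (1 gene), and without Early_S replicate 3 only RRS1 was (1 gene, log2 change -0.97). RRP1B was also lost without the second G1 library (adjusted p = 0.058). With the T>C reads scaled by all reads in place of T>C reads, the median gene fell by 0.33, and 9 of the 36 genes were called lower, against 7.17% of all genes called in either direction.

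In Late_S against Early_S, 5 of the 36 genes rose in T>C reads and none fell on the same scale (edgeR quasi-likelihood; 1 was lower at an unadjusted p under 0.05, and DESeq2 called 8 higher), beside 1.72% higher and 1.81% lower of all genes. The genes were DDX10 (log2 change 1.58 ± 0.30 SE), RRS1 (1.19 ± 0.25), WDR43 (1.15 ± 0.19), NOP56 (0.50 ± 0.13) and DDX21 (0.38 ± 0.11). These directions are relative to other genes: with scaling by all reads the median gene fell by 0.91, 20 of the 36 genes were called lower and none higher (36.2% of all genes were called in either direction), and NOP56 and DDX21 turned to -0.40 and -0.52. The calls of NOP56 and DDX21 were lost in 5 and 7 of the 12 fits that leave out a library, and 3 genes were left without Late_S replicate 1 or 3, or without Early_S replicate 2 or 3. Over all 15 libraries, 28.1% of the reads of DDX10 and 28.1% of those of NOP56 map to several places. T>C reads were not fitted without such reads.

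In T>C reads, no member was called in G2 against Late_S (edgeR quasi-likelihood; 5 at an unadjusted p under 0.05, none by DESeq2), against 0.0523% of all genes. In G1 against G2, RRP1B was higher in G1 (log2 change 1.07 ± 0.27 SE) and NOP56 lower (-0.60 ± 0.13 SE), beside 2.9% higher and 4.4% lower of all genes. RRP1B was not called without the second G1 library (0.93, adjusted p = 0.088), and NOP56 turned to 0.66 when scaled by all reads.

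The labelled share, the percentage of a gene's reads that carry a conversion, depends on how fast new RNA replaces old and on how many convertible T positions the reads hold, so genes are not ranked by it here. All 36 genes stood above the unalkylated background (edgeR quasi-likelihood on the odds of a T>C read; 84.4% of 12909 genes tested did). The background in No_alkylation was 0.531% for the median member and 0.540% for the median of 10044 genes with at least 100 reads on average. NOL6, a small subunit factor, was unlike the rest, with 16.4%, 12.9% and 13.7% T>C reads in No_alkylation and 40.7%, 49.0% and 38.1% in G1. The means of the other members in No_alkylation were at most 1.43% (NIP7).

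Over the summed reads of each group, the members' median labelled share was 28.7% (G1), 31.9% (Early_S), 13.0% (Late_S) and 12.3% (G2). Over all 10044 genes the medians were 26.6%, 20.3%, 10.0% and 9.67%. Over all reads of the 36 genes together, the labelled share was 22.8% ± 0.507 in G1 and 20.4% ± 0.251 in Early_S (SD, n = 3), so the members' median and their pooled share differ in direction. The spread among members was wide in each phase, from 8.09% (FBL) to 79.6% (LYAR) in G1. Converted T positions, as a percentage of those covered, were also pooled over the 36 genes. They were level, at 2.56% ± 0.065 in G1 and 2.54% ± 0.045 in Early_S (SD, n = 3).

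The test of the share compared the odds of a T>C read between phases relative to the bulk of genes. In Early_S against G1, 6 of the 36 genes were higher and none lower (edgeR quasi-likelihood; 11 higher and none lower at an unadjusted p under 0.05), beside 4.27% higher and 1.07% lower of all genes. The median log2 change in odds was 0.39, against 0.02 over all genes. NOP2 had the most secure rise, from 56.2%, 59.5% and 57.8% in G1 to 74.8%, 71.0% and 72.0% in Early_S, with no overlap (log2 change in odds 1.35 ± 0.19 SE, adjusted p = 3.3e-05). LYAR went from 74.7%, 82.3% and 81.5% to 90.3%, 89.0% and 86.9%.

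The other 4 were NOP16, RRP12, UTP4 and NOP56. NOP16 went from 44.1% ± 3.65 to 55.0% ± 5.34, RRP12 from 22.4% ± 2.15 to 33.3% ± 2.01 and UTP4 from 17.1% ± 2.99 to 24.4% ± 3.24 (SD, n = 3). NOP56 was called relative to other genes though its own shares overlapped, at 28.3% ± 4.51 and 30.7% ± 2.43. Without the second Early_S library 2 genes were called, NOP2 and RRP12. When both kinds of read were scaled by all reads, the median gene fell by 0.38 and 1 member was higher (NOP2) and 1 lower (NPM1).

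**Figure D5:**
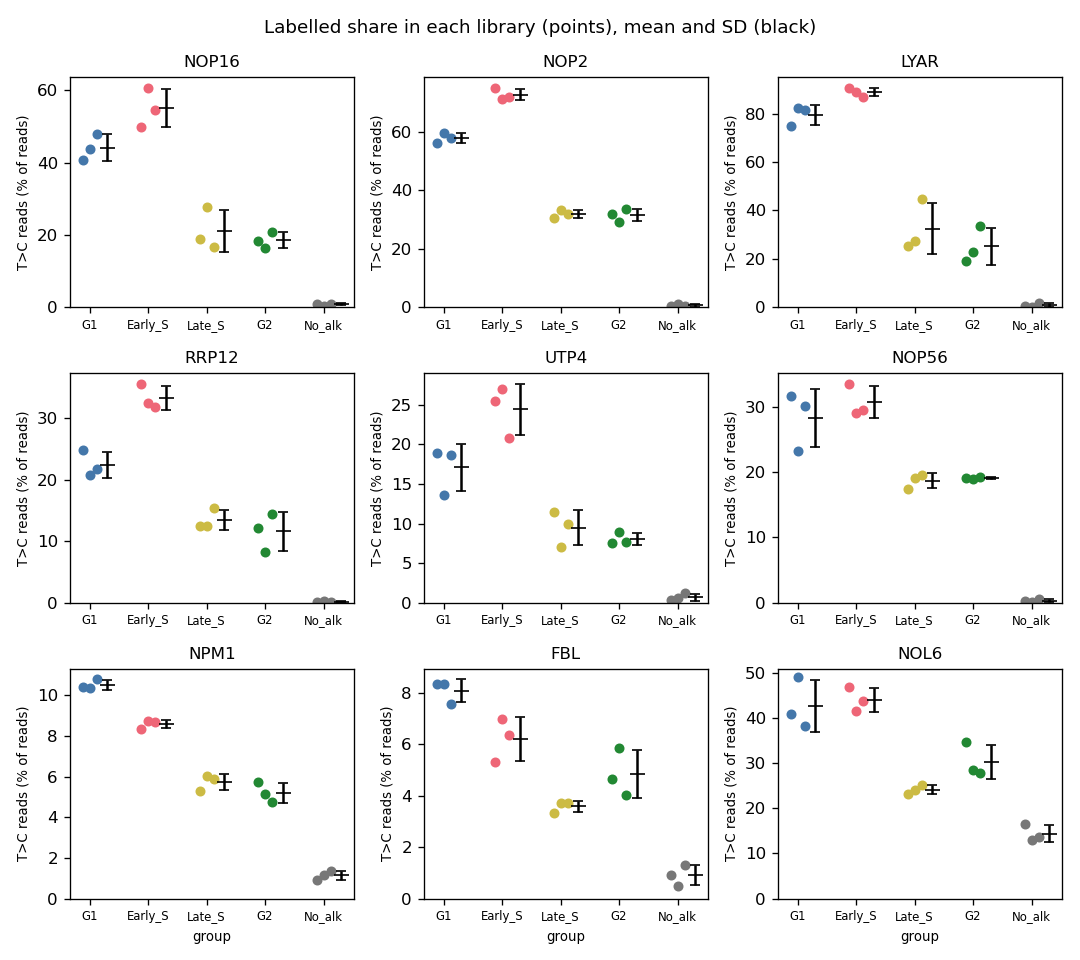
T>C reads as a percentage of all reads (vertical axis, from 0) of 9 genes in each library of the 4 phases and No_alkylation (points), with mean and SD of the 3 libraries in black. NOP2, RRP12, UTP4, NOP16 and LYAR are highest in Early_S, FBL and NPM1 are highest in G1, and NOL6 alone has a No_alkylation value far from 0.

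In Late_S against Early_S, relative to the bulk, the test called 9 of the 36 genes lower in share and 1 higher, beside 5.83% lower and 2.27% higher of all genes. LYAR changed most, to 25.3%, 27.3% and 44.5% in Late_S (log2 change in odds -2.93 ± 0.41 SE, adjusted p = 2.7e-05, edgeR quasi-likelihood). RRP1B (-1.42), DDX21 (-1.38), NOP2 (-1.36), RRP9 (-1.2), NOP16 (-1.08), BYSL (-1.01), NOLC1 (-0.56) and NCL (-0.40) were the others. Without the second Late_S library 6 genes were called, and RRP9, BYSL, NOLC1 and NCL were not among them.

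Some members had changes in odds above 0 that were not called, such as NOP58 (0.35), NIP7 (0.35) and FBL (0.33). The median of the 36 genes was -0.27. NPM1 was the 1 member called higher. Its labelled share was 10.4%, 10.3% and 10.8% in G1, 8.35%, 8.74% and 8.67% in Early_S, 5.31%, 6.0% and 5.88% in Late_S and 5.72%, 5.13% and 4.77% in G2. It dropped from Early_S to Late_S, and less than in the bulk of genes (log2 change in odds 0.52 ± 0.10 SE, adjusted p = 0.0011, edgeR quasi-likelihood), and it read -0.63 when scaled by all reads.

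For G2 against Late_S no member's share was called (edgeR quasi-likelihood; 2 at an unadjusted p under 0.05), against 0.0436% of all genes. In G1 against G2, relative to the bulk, 3 genes were higher in G1 and 4 lower, beside 4.4% higher and 4.33% lower of all genes. LYAR (log2 change in odds 2.01 ± 0.40 SE), DDX21 (1.23 ± 0.13) and RRP1B (1.19 ± 0.31) were higher. DDX21 had shares of 64.1%, 62.1% and 66.1% in G1 and 20.3%, 21.5% and 19.5% in G2, and RRP1B had 36.6%, 41.1% and 33.7% in G1 and 9.93%, 6.65% and 7.67% in G2. LYAR had 18.9%, 22.8% and 33.6% in G2, far under its G1 values.

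FBL, NPM1, NOP56 and NHP2 were lower relative to the bulk, with log2 changes in odds of -0.76, -0.47, -0.84 and -1.13. Their own shares were higher in G1 in every library; for FBL they were 8.34%, 8.36% and 7.57% in G1 and 4.64%, 5.84% and 4.01% in G2. Scaled by all reads they turned to 0.81, 1.10, 0.74 and 0.44, and the median gene stood at 1.74. NPM1 was not called after background subtraction (-0.34, adjusted p = 0.086, edgeR quasi-likelihood), nor NHP2 without G2 replicate 2 (-0.95, adjusted p = 0.051).

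Levels in the No_alkylation libraries were compared with the mean of the 4 phases. Of the 36 genes, 22 were higher there and 2 lower, beside 22.5% and 21% of all genes (edgeR quasi-likelihood over 13972 genes), with a median log2 difference of 0.40 against 0.01 over all genes. WDR43 was higher by 1.07 ± 0.08 (SE), at 144, 170 and 178 CPM against 38.6 to 115 in the 12 alkylated libraries, and WDR75 by 1.03 ± 0.11. The 2 lower genes were FBL, with 668, 651 and 650 CPM against 815 to 1028, and NHP2, with 84.5, 96.9 and 92.5 against 107 to 130. In these libraries 59.7% ± 0.665 of reads lay in the counted regions, below every phase, and the G2/M markers summed to 932 to 972 CPM, between Early_S and Late_S; the part of either in the result was not tested.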

How the data were processed

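The 15 libraries were made from 500 ng of RNA each, and 45 minutes of labelling preceded the sort, per the labels' protocols. Reads were counted with slamdunk 0.2.4 per the file headers, on hg38 per the submitters' processing notes and with an annotation merged from Ensembl release 90 per the file headers. The authors deposited, for 68625 regions, the read count, T>C read count and multimapped count. The count columns were used as deposited and summed by gene name. The deposited CPM gave only the part of a library inside the regions (58.9% to 69.7%), and CPM in the text was computed here. The percentage of converted T positions comes from the deposited conversions and coverage on T positions. The deposited conversion rate, a fraction, gave no value in the text. The sources used here do not give the aligner settings or how many conversions make a T>C read.

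The members, lists and rules for naming genes were chosen with earlier results of these data known. Values of every library are given for NCL, NPM1, FBL, DKC1, the 3 largest called changes of each steady-state comparison and of the T>C comparison Early_S against G1, and called members against the majority. Of each related list at most 3 genes with the smallest p are named. The 12 alkylated libraries were fitted together with edgeR 4.0.16 (R 4.3.3): filterByExpr (count minimum 10), TMM factors, glmQLFit and glmQLFTest, called at an adjusted p under 0.05. The T>C share was tested as the interaction of read kind with phase, with the library as a block and TMM factors for each kind. DESeq2 1.42.0, other size factors, no filter, single libraries left out, a replicate block, the top region alone, uniquely mapped reads, scaling by all reads and background subtraction were tried as alternatives. The fits were run on simulated data with the same spread for every gene, and for the share with T>C reads drawn by counting error alone. How the fits behave under the real spread was not tested. Deviations of same-numbered libraries of different phases correlated at -0.012 to 0.042 in all reads and -0.015 to 0.095 in T>C reads. Those of differently numbered libraries correlated at -0.040 to 0.026 and -0.065 to 0.044. Correlations this small cannot decide whether libraries with the same number belong together, and the main fits did not pair them. Libraries of a group differed beyond counting noise (chi-square per gene 11.4 to 20.9). Reads carry no molecular identifiers, so depth sets counting error only.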

Additional observations from a re-analysis of the deposited data

How the results depend on the processing

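The steady-state counts of members called in Early_S against G1, Late_S against Early_S, G1 against G2 and across phases stayed within 1.5 times of the value above under every alternative, and no called member changed direction there. With a replicate block, 27, 23 (22 higher and 1, FBL, lower) and 14 members were called in the first 3 comparisons. In G2 against Late_S 1 was called (RRP9), as without a filter on low counts (1, RRP9). The main fits did not use replicate numbers as pairs. The block gave 4, 5 and 2 calls in T>C reads and 6, 10 and 7 in the share.

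The T>C and share results depend on the scaling. Scaled by all reads, T>C calls numbered 9 in Early_S against G1, 20 in Late_S against Early_S, 29 in G1 against G2 and 29 across phases, where 7.17%, 36.2%, 53.7% and 55.7% of all genes were called. Share calls numbered 2, 28 and 33, beside 5.96%, 44.2% and 63.0% of all genes. Under this scaling NOP56 in G1 against G2 (0.66), DDX21 (-0.52) and NOP56 (-0.40) in Late_S against Early_S reversed in T>C reads. In the share, FBL (0.81), NHP2 (0.44), NOP56 (0.74) and NPM1 (1.10) in G1 against G2 and NPM1 (-0.63) in Late_S against Early_S reversed. By construction it carries the drop in T>C reads from G1 to G2 into every gene. DESeq2 called 8 members in T>C reads of Late_S against Early_S and 13 across phases, and without a filter 4 were called in G1 against G2; the cause was not tested. Background subtraction lost the calls of NCL in T>C reads of Early_S against G1 (-0.33) and, in the share, of LYAR in Early_S against G1 (1.43), NOLC1 in Late_S against Early_S (-0.54) and NPM1 in G1 against G2 (-0.34).

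Leaving out 1 library gave 23 to 27, 17 to 20 and 10 to 15 steady-state calls in the 3 comparisons. In T>C reads it gave 1 to 3, 3 to 5 and 1 to 3, and 5 to 7 across phases, and in the share 2 to 7, 6 to 11 and 6 to 7. Leaving out 1 No_alkylation library, an alternative chosen after seeing the data, gave 20 to 23 calls of level and 36 of share. UTP20, with 52 reads and 0 T>C reads in an Early_S library, allows a share of up to 5.77% there by counting error alone.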

Other observations

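In 6 of the genes a second end region took at least 10% of the reads over all libraries. WDR75 had 28.9% ± 10.6 and 30.8% ± 6.20 of its reads in the second region in G1 and Early_S, and 19.3% ± 1.47 and 17.8% ± 1.26 in Late_S and G2 (SD, n = 3). The 6 libraries of the earlier phases, at 21.3% to 41.0%, lay above the 6 of the later ones, at 16.6% to 20.3%. For NPM1 the second region, 720 bases long, took 19.7% ± 4.11 of reads in G1 and 26.5% ± 1.34 in G2, and the ranges did not overlap (16.8% to 24.4% and 25.2% to 27.9%). These shares were not tested, and reads that map to several places, 60.0% of NPM1 reads, enter them. Some phases were also apart in 3 of the other genes. How often such ranges part over all genes was not counted, so these values, like those of WDR75 and NPM1, only describe single genes. The second region of NOLC1 took 21.4% to 22.6% of reads in G1, 16.4% to 18.4% in Late_S and 17.3% to 18.5% in G2. That of FBL took 19.4% to 20.2% in G1 and 17.1% to 18.2% in G2, and that of NOP58 29.0% to 30.8% in G1 and 24.8% to 27.8% in Early_S. For DKC1 the ranges of all 4 phases overlapped.

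RRS1 was lowest in the library numbered 2 in each of the 4 phases, in all reads and in T>C reads. Over all genes, deviations of same-numbered libraries correlated at 0.095 at most. GAR1 had 349 T>C CPM in the second G2 library, against 153 and 92.8 in G2 replicates 1 and 3, while its level in all reads was 147 CPM there, against 130 and 138. MYBBP1A had 0 T>C reads of 484 in the first G2 library, which by counting error alone allows a share of up to 0.62%. The shares in G2 replicates 2 and 3 were 10.6% and 12.5%. Together the 36 genes took 0.870% ± 0.027 of G1 reads, 0.660% ± 0.028 of Early_S reads, 0.795% ± 0.008 of Late_S reads and 0.803% ± 0.014 of G2 reads. In No_alkylation it was 0.902% ± 0.009.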
